A study of Mus musculus with 12 samples.

Results

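The genes described here encode enzymes that turn cholesterol into conjugated bile acids, with a nuclear receptor that represses some of these genes. They are Cyp7a1, Cyp8b1, Cyp27a1, Cyp7b1, Hsd3b7, Akr1d1, Amacr, Slc27a5, Baat and Nr0b2, and they were taken as every probe whose RefSeq accession belongs to 1 of these symbols. All 10 genes were on the array, with 12 probes, out of 17016 named genes and 41174 probes. Cyp7a1 and Baat each had 2 probes, and the other genes had 1.

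The cells were primary hepatocytes of C57BL/6 mice, either PGC-1alpha+/+ or PGC-1alpha-/-. PGC-1alpha, the product of Ppargc1a, coactivates transcription factors that control energy metabolism in the liver. Cells were infected with an adenovirus carrying the hairpin RNA that the labels call shTLS, or with one carrying a control shRNA. Each of the 4 groups, which are +/+ control, +/+ shTLS, -/- control and -/- shTLS, had 3 arrays. The 3 mice of each genotype gave 1 control culture and 1 shTLS culture each, so the 12 arrays came from 6 mice, and there was no uninfected culture. All cultures were kept with 100 nM dexamethasone and 100 nM insulin, were infected at a multiplicity of 5 and were harvested 24 h later. The labels give neither the deleted part of Ppargc1a nor the tissues in which it is deleted, and they name 1 shTLS vector.

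In the classical route of bile acid synthesis, Cyp7a1 makes the first, rate-limiting hydroxylation of cholesterol, and Cyp8b1 adds the hydroxyl group that gives cholic acid. In the alternative route, Cyp27a1 oxidises the side chain first and Cyp7b1 then hydroxylates the product. Hsd3b7 and Akr1d1 modify the sterol rings, Amacr changes the configuration of the side chain before it is shortened in peroxisomes, and Slc27a5 and Baat activate the acid and join it to taurine or glycine. Nr0b2, the small heterodimer partner SHP, is induced by the bile acid receptor and represses Cyp7a1 and Cyp8b1.

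The upstream sequences of Cyp8b1 and Nr0b2 are shown because, of the 5 genes matched in the RefSeq table of assembly GRCm38.p6, these held a motif that was searched for. Each line gives the 250 bases before the gene's start, 5′ to 3′ on the gene's own strand. Capitals mark the motifs. The Cyp8b1 sequence lies at chr9:121916306-121916555 on the minus strand, and the Nr0b2 sequence at chr4:133553126-133553375 on the plus strand.
Cyp8b1: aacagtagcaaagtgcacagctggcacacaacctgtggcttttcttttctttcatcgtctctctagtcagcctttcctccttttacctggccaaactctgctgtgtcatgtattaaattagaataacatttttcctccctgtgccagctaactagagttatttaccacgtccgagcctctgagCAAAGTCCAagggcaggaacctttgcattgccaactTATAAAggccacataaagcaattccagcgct
Nr0b2: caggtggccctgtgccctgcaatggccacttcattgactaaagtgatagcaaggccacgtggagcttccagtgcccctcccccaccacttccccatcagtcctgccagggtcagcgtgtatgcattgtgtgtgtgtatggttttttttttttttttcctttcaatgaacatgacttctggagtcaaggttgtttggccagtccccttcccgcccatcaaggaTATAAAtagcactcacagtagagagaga
The Cyp8b1 sequence held CAAAGTCCA, a sequence bound by Hnf4a, from 67 to 59 bases before the start, and TATAAA, the TATA box, from 31 to 26 bases before it. The Nr0b2 sequence held TATAAA from 28 to 23 bases before the start. Both strands were searched for exact matches only, so sites that differ from a motif by a base were not counted. CAAAGTCCA was in 0.384% of the 32851 upstream sequences of the same length, and TATAAA in 12.4%. CAAGGTCA, a site of Nr5a2, was in 1.33% of all sequences. The half-site AGGTCA followed 1 base later by another in the same orientation (DR1, bound by Hnf4a) was in 0.0335%, and by one in the opposite orientation (IR1, bound by the bile acid receptor) in 0.00609%. None of these 3 motifs was in the 5 sequences of Cyp8b1, Nr0b2, Cyp27a1, Hsd3b7 and Akr1d1. No motif overlapped another in these sequences.

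Values are log2 normalized signals, and each list of 3 values gives arrays 1, 2 and 3 of a group. Arrays of the same number in the control and shTLS groups of a genotype are the same mouse. The number is also the independent assay and the slide, and each group always had the same position on the slides, so group and position cannot be told apart. The 1 probe of Ppargc1a did not differ between genotypes past the threshold, with -/- minus +/+ at 0.17 with the control vector and -0.52 with shTLS (limma, adjusted p = 1 in both). Whether that probe lies in the deleted part is not given in the sources used here, so it does not check the genotypes.

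Each array had 22753 to 26694 probes well above background. Array 2 of +/+ control cells had the fewest. It also had 206 flagged spots, against 74 to 116 on the other arrays, though 0 flagged spots belonged to the genes described here. Before normalization the control arrays were brighter, with a 75th percentile of signal of 810.4 to 1064.3 on 6 arrays, than the shTLS arrays, with 343.5 to 634.6 on 6 arrays, and these ranges did not overlap. Results under other scalings are in the closing section. All 11 hepatocyte markers on the array, such as albumin, were above background on every array. Array 1 of +/+ control cells stood apart. Its hepatocyte markers had a mean of 13.65, against 11.32 to 12.65 on the other 11 arrays. Its mean over the 10 genes described here was 8.64, against 6.48 to 7.54, and 9 of the 10 were above background there, against 6 to 8 elsewhere. In bulk cultures, fewer cells of a type and less RNA per cell cannot be told apart.

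Cyp7a1 and Cyp8b1, named above for the classical route, were near or below the background of the array. The first probe of Cyp7a1 was at 5.32, 4.53 and 1.43 in +/+ control cells and was well above background on the first of these arrays only. On the 9 arrays of the other groups it was between 1.36 and 1.86, not well above background on any. The second probe was at 7.02, 3.31 and 1.03 in +/+ control cells, again above background on array 1 only. It was at 1.03, 1.03 and 3.02 in +/+ shTLS cells, 2.51, 1.03 and 1.05 in -/- control cells and 2.34, 2.85 and 2.76 in -/- shTLS cells. A detected level of Cyp7a1 was thus seen in 1 of 12 cultures, the one whose hepatocyte markers were highest.

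No fold is given for Cyp7a1, since array 2 of +/+ control cells, at 4.53 and 3.31, was itself not well above background. Cyp8b1 was not well above background on any of the 12 arrays, with values of 1.33 to 2.74.

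**Figure D1:**
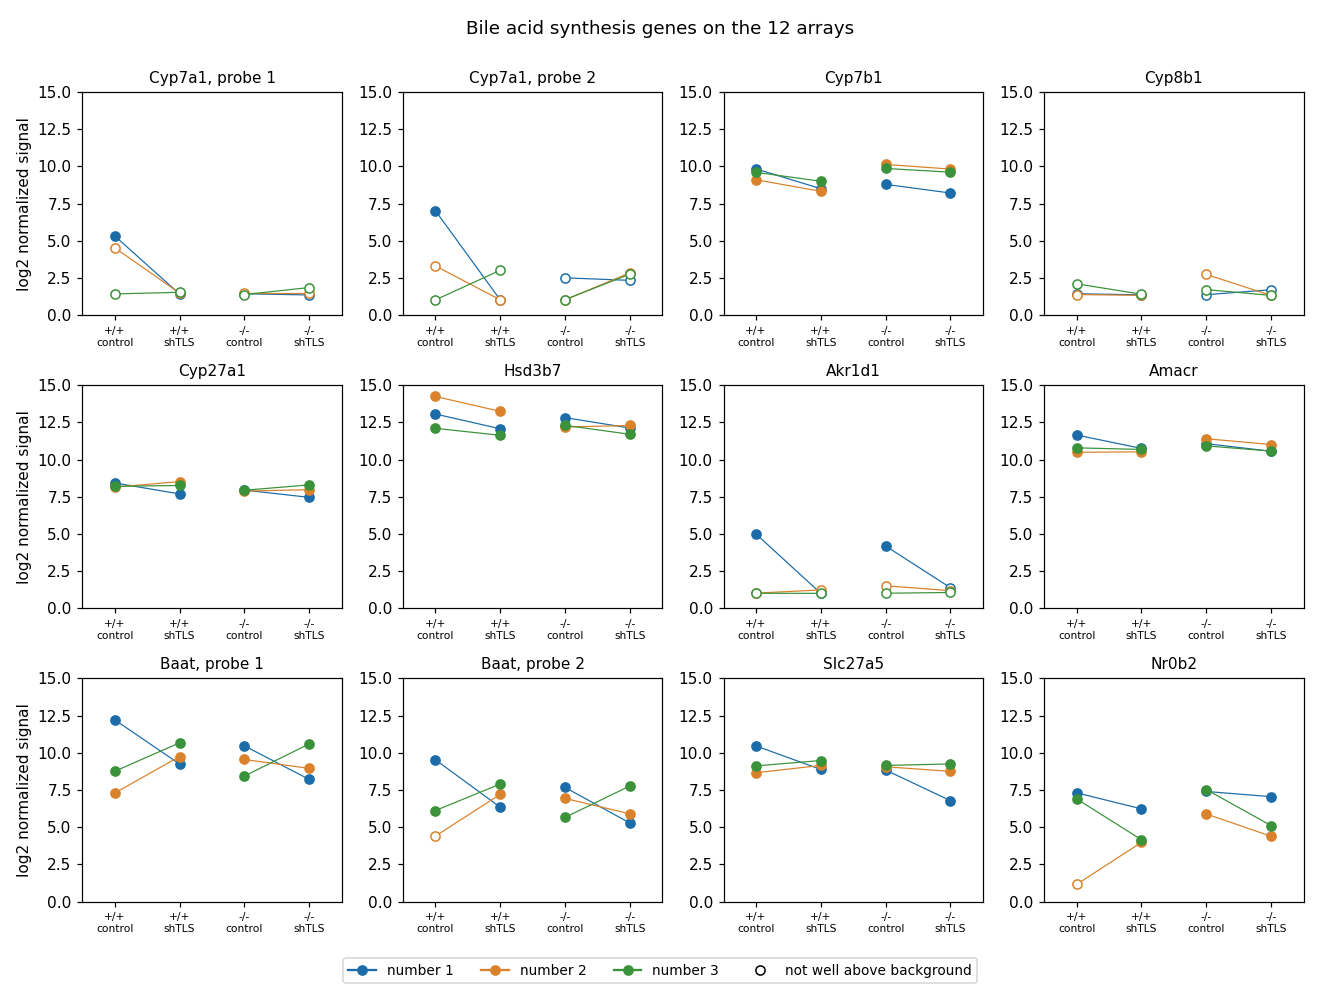
Log2 normalized signal (vertical axis) of each of the 12 probes in the 4 groups (horizontal axis), with 1 point per array coloured by its number. Open points are not well above background. Cyp7a1 is filled on 1 array and Cyp8b1 on 0, while Cyp7b1, Cyp27a1, Hsd3b7, Amacr and Slc27a5 are filled on all 12.

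Cyp27a1 and Cyp7b1, named above for the alternative route, were measured on every array. Cyp7b1 was 9.83, 9.10 and 9.60 in +/+ control cells and 8.50, 8.32 and 9.0 in +/+ shTLS cells, and 8.79, 10.13 and 9.86 in -/- control cells against 8.21, 9.82 and 9.61 in -/- shTLS cells. The +/+ groups did not overlap, the -/- groups did, and the level was lower with shTLS in 6 of 6 mice. The difference was -0.90 (SE 0.47) in +/+ cells and -0.38 (SE 0.47) in -/- cells. Averaged over both genotypes it was -0.64 (SE 0.33, 95% interval -1.38 to 0.10; limma, adjusted p = 0.234).

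With the mouse as a block, which compares the 2 cultures of each mouse, Cyp7b1 passed the threshold in +/+ cells (adjusted p = 0.0313) and over both genotypes (SE 0.14, adjusted p = 0.0166). The call in +/+ cells was lost when any 1 of the 6 mice was left out (0 calls each time). The averaged call of Cyp7b1 was lost without -/- mouse 1 (adjusted p = 0.0594) or -/- mouse 2 (adjusted p = 0.052), each by limma.

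Cyp27a1 was 8.43, 8.15 and 8.20 in +/+ control cells, 7.69, 8.52 and 8.26 in +/+ shTLS cells, 7.95, 7.88 and 7.94 in -/- control cells and 7.46, 7.98 and 8.30 in -/- shTLS cells. Control and shTLS overlapped in both genotypes. The averaged difference was -0.06 (SE 0.20, 95% interval -0.51 to 0.39; limma, adjusted p = 0.877). With the deposited normalization, a change of more than 0.51 in either direction thus lies outside the interval. The interval does not cover other scalings. With spike-in scaling all 7 tested genes, Cyp27a1 among them, had a negative averaged difference (median -1.38, against -0.84 for all genes).

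Of the ring enzymes, Hsd3b7 was bright and Akr1d1 was near background. Hsd3b7 was 13.06, 14.24 and 12.10 in +/+ control cells and 12.07, 13.24 and 11.63 in +/+ shTLS cells. In -/- cells it was 12.82, 12.19 and 12.30 with the control vector and 12.12, 12.29 and 11.70 with shTLS. The groups overlapped, and the level was lower with shTLS in 5 of 6 mice. The averaged difference was -0.61 (SE 0.38, 95% interval -1.45 to 0.22; limma, adjusted p = 0.311). Blocked by mouse, its adjusted p was 0.0276. That call was lost without +/+ mouse 1 (adjusted p = 0.0682), +/+ mouse 2 (0.0665), -/- mouse 1 (0.0898) or -/- mouse 3 (0.0853).

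Akr1d1 was well above background on 2 arrays, array 1 of +/+ control cells (5.00) and array 1 of -/- control cells (4.19). On the other 10 arrays it was between 1.01 and 1.52. No fold is given, since each group had at most 1 array above background.

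Amacr was 11.65, 10.49 and 10.79 in +/+ control cells, 10.75, 10.52 and 10.68 in +/+ shTLS cells, 11.07, 11.40 and 10.92 in -/- control cells and 10.56, 11.01 and 10.57 in -/- shTLS cells. It was lower with shTLS in 5 of 6 mice. The averaged difference of -0.37 (SE 0.22, 95% interval -0.86 to 0.12) did not pass the threshold (limma, adjusted p = 0.292).

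Of the conjugating enzymes, Slc27a5 was 10.46, 8.66 and 9.12 in +/+ control cells, 8.88, 9.15 and 9.48 in +/+ shTLS cells, 8.84, 9.06 and 9.15 in -/- control cells and 6.78, 8.75 and 9.25 in -/- shTLS cells. Array 1 was the highest of its group in +/+ control cells and the lowest of its group in every other group. The averaged difference was -0.50 (SE 0.43; limma, adjusted p = 0.463), with 3 of 6 mice lower.

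The first probe of Baat was 12.21, 7.30 and 8.76 in +/+ control cells, 9.24, 9.75 and 10.67 in +/+ shTLS cells, 10.46, 9.55 and 8.44 in -/- control cells and 8.21, 8.95 and 10.60 in -/- shTLS cells. Within +/+ control cells the SD was 2.52 (n = 3). The effect of shTLS in the mouse numbered 1 was -2.97 in +/+ and -2.25 in -/- cells, while in the mouse numbered 3 it was 1.90 and 2.16. In the mice numbered 2 the signs were opposite, at 2.45 in +/+ and -0.59 in -/- cells. Over all mice the averaged difference was 0.12 (SE 0.77, 95% interval -1.58 to 1.81; limma, adjusted p = 0.936), which was -0.73 with spike-in scaling. The second probe, with a correlation of 0.995 to the first over the 12 arrays, gave 0.01 (SE 0.80).

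Nr0b2, the repressor, had the widest spread. It was 7.31, 1.16 and 6.90 in +/+ control cells, where array 2 was not well above background, and 6.23, 3.98 and 4.16 in +/+ shTLS cells. In -/- cells it was 7.40, 5.89 and 7.53 with the control vector and 7.05, 4.39 and 5.11 with shTLS. It was lower with shTLS in 5 of 6 mice, the exception being the +/+ mouse with the array below background. The averaged difference was -0.88 (SE 1.00, 95% interval -3.08 to 1.33; limma, adjusted p = 0.592). Its residual SD of 2.01 was above that of 99.3% of the tested probes, and that of the first Baat probe, 1.53, was above 97.3%. Amacr (0.36, above 25.9%) was among the steadier ones.

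Over all these genes, 8 probes of 7 genes were bright enough to test, and shTLS changed 0 of the 8 at an adjusted p under 0.05 by limma in either genotype or over both. By the same test 0.989% of all 24983 tested probes were called in +/+ cells, 0.773% in -/- cells and 7.77% over both genotypes. At an unadjusted p under 0.05 the count of the 7 genes was also 0, where 16.3%, 11.8% and 27.9% of all probes passed. With the mouse as a block, 1 probe was called in +/+ cells, 0 in -/- cells and 2 over both, against 15.8%, 8.02% and 32.8% of all probes. The share of the 8 probes was not above that of all probes in any of these. When arrays were scaled to their spike-in controls, the median difference of all probes was -0.85 in +/+ cells and -0.81 over both genotypes. Then 3 of the 8 probes were called in +/+ cells and 5 over both, against 5191 and 13560 of all 24983 probes. With this scaling the share of the 8 probes was above that of all probes in +/+ cells and close to it over both genotypes. With so few probes, no result about these genes is drawn from either share.

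The sign of the difference was negative for 6 of the 7 genes in +/+ cells and 7 of 7 in -/- cells. Their median was -0.32 in +/+ cells, -0.40 in -/- cells and -0.50 over both, beside -0.05, -0.03 and -0.04 for all tested genes. The 11 hepatocyte markers had medians of -0.21, -0.58 and -0.46 in the same comparisons, with 9 of 11 negative over both genotypes, and their part in the result was not tested. The sign differed between mice. In the mice numbered 1, 7 of 7 genes were lower with shTLS in both genotypes, with medians of -1.08 in the +/+ mouse and -0.58 in the -/- mouse. The hepatocyte markers had medians of -1.11 and -0.58 in these mice. In the other +/+ mice 2 of 7 genes (median 0.37) and 4 of 7 (median -0.10) were lower, and in the other -/- mice 5 of 7 (median -0.31) and 4 of 7 (median -0.25). Without array 1 of +/+ control cells the +/+ median was 0.01, with 3 of 7 genes negative. Without array 1 of -/- shTLS cells the -/- median was -0.02, with 4 of 7 negative.

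**Figure D2:**
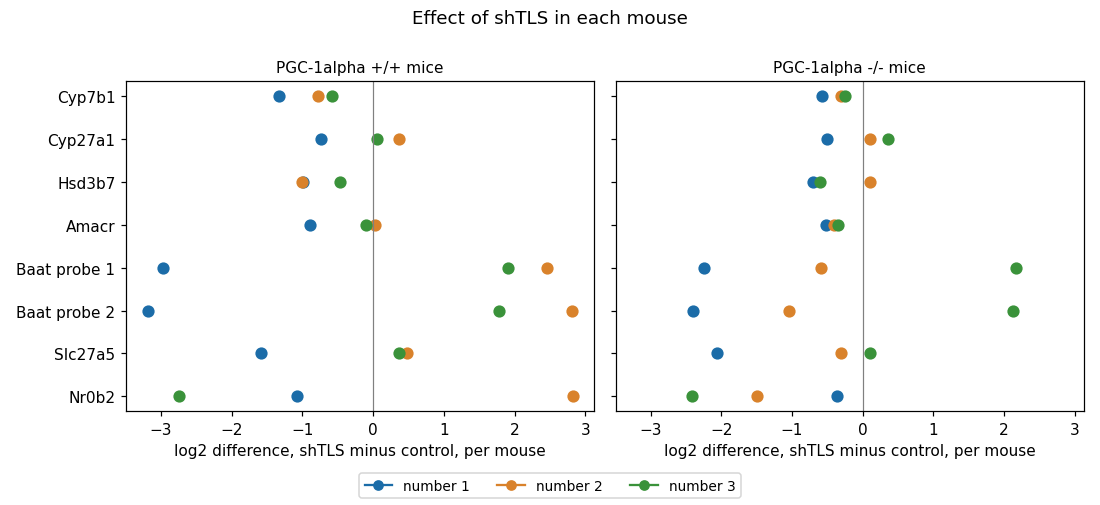
Log2 difference of shTLS minus control (horizontal axis) within each mouse for the 8 tested probes (vertical axis), in PGC-1alpha+/+ mice on the left and PGC-1alpha-/- mice on the right. Each point is 1 mouse, coloured by its number. Cyp7b1 lies below 0 in 6 of 6 mice, while Baat lies below -2 in both mice numbered 1 and near 2 in both mice numbered 3. In the mice numbered 2 Baat lies above 0 in the +/+ mouse and below 0 in the -/- mouse.

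Loss of PGC-1alpha did not change any of the 8 probes past the threshold (limma, adjusted p = 1 for each with either vector and averaged over both). Among all probes, 0.0801% were called with the control vector, 0.072% with shTLS and 0.0881% averaged over vectors. Nr0b2 had the largest difference between genotypes, -/- minus +/+, with the control vector, at 1.82 (SE 1.42, 95% interval -1.30 to 4.94), and it was 0.73 with shTLS. The first of these turns on the +/+ control array at 1.16, since without it the difference was -0.17. Slc27a5 was at -0.40 and -0.91, and Hsd3b7 at -0.69 and -0.27. Cyp7b1 was at 0.09 with the control vector (95% interval -0.96 to 1.13) and 0.61 with shTLS. The effect of shTLS in -/- cells minus that in +/+ cells was also not past the threshold for any probe (limma, adjusted p = 1 for each, 0% of all probes called). Without a block this difference was 0.52 (SE 0.67, 95% interval -0.96 to 1.99) for Cyp7b1 and 0.42 (SE 0.76) for Hsd3b7. That interval for Cyp7b1 was wider than either of its effects of shTLS. With the mouse as a block, which uses the pairing, the SEs were 0.29 for Cyp7b1 and 0.32 for Hsd3b7 (limma, unadjusted p = 0.116 and 0.234). No probe passed the threshold with that block either (0% of all probes called).

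The other steps of the pathway were measured more fully. All 15 of the listed genes were tested, 11 had a negative averaged difference with shTLS (median -0.60), and 1 rose and 1 fell past the threshold, where 4.52% of all probes were called higher and 3.25% lower. Cyp2c70, the enzyme that makes muricholic acids in mice, was 15.66, 12.86 and 13.53 in +/+ control cells and 11.72, 12.47 and 12.39 in +/+ shTLS cells. In -/- cells it was 14.23, 14.99 and 13.19 with the control vector and 11.31, 13.06 and 12.15 with shTLS. It was lower in 6 of 6 mice, the groups did not overlap, and it fell by 1.89 (SE 0.51; limma, adjusted p = 0.0464). This call is close to the threshold and was lost in 10 of the 12 fits that left out 1 array (adjusted p up to 0.113); it held without +/+ control array 2 and without -/- control array 3.

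Cyp46a1, the cholesterol 24-hydroxylase, went the other way. It was 5.25, 5.56 and 5.28 in +/+ control cells and 6.36, 6.56 and 7.09 in +/+ shTLS cells, and 5.03, 5.39 and 5.32 in -/- control cells against 6.69, 6.69 and 7.11 in -/- shTLS cells. It rose by 1.31 in +/+ cells (limma, adjusted p = 0.046), by 1.58 in -/- cells (adjusted p = 0.0166) and by 1.45 over both (SE 0.19, adjusted p = 0.0014), higher in 6 of 6 mice. The calls in each genotype were lost with spike-in scaling (0.60 in +/+ and 0.91 in -/- cells) and with normexp background correction (0.61 and 0.71). The call in +/+ cells was lost without any array but +/+ shTLS array 1 (11 of 12 fits, adjusted p up to 0.199), and that in -/- cells without each -/- control array and without -/- shTLS arrays 2 and 3 (5 fits, adjusted p up to 0.107), while the averaged call held in all 12.

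**Figure D3:**
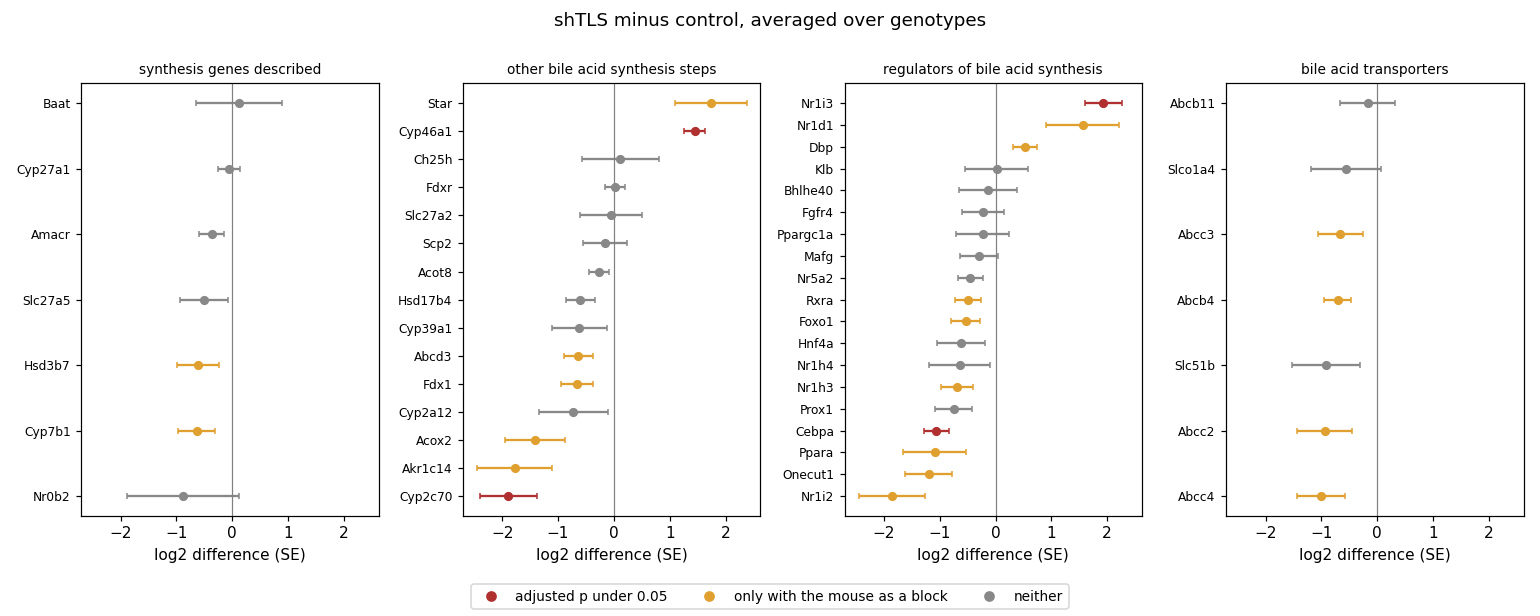
Log2 difference of shTLS minus control averaged over both genotypes (horizontal axis), with bars of 1 SE from the limma fit, for the tested bile acid genes and the other listed genes of the pathway (vertical axis). Colours mark genes past an adjusted p of 0.05, genes past it only with the mouse as a block, and the rest. Cyp46a1 (1.45) and Nr1i3 (1.93) lie to the right, and Cyp2c70 (-1.89) and Cebpa (-1.06) to the left.

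Of 20 regulators 19 were tested, all but Fgf15, and 15 had a negative difference (median -0.49). Nr1i3, the nuclear receptor CAR, was 7.05, 7.10 and 6.14 in +/+ control cells and 9.46, 9.51 and 7.68 in +/+ shTLS cells, and 6.74, 6.63 and 6.99 in -/- control cells against 8.39, 8.81 and 8.41 in -/- shTLS cells. It rose by 1.93 over both genotypes (SE 0.33; limma, adjusted p = 0.00753) and in 6 of 6 mice. Cebpa, a transcription factor of the hepatocyte lineage, fell by 1.06 with its brighter probe (SE 0.23; limma, adjusted p = 0.0237), while its other probe was at -0.52 (adjusted p = 0.186). The call of Cebpa was lost without +/+ control array 1 (adjusted p = 0.0583), +/+ shTLS array 3 (0.0552) or -/- control array 2 (0.0677).

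Of 11 transporters 7 were tested, 7 of 7 had a negative difference (median -0.71) and 0 passed the threshold by limma. At an unadjusted p under 0.05 there were 2 of 7, near the 27.9% of all probes. The same count was 8 of 15 for the other steps and 8 of 19 for the regulators, both above that share. Abcc4, a basolateral exporter, was at -1.0 with its brighter probe (SE 0.43, adjusted p = 0.156) and at -0.17 with its other probe. Abcc2, a canalicular exporter, was at -0.94 (SE 0.49, adjusted p = 0.236). Slc10a1, the uptake transporter of conjugated bile acids, was above background on 3 of 12 arrays and was not tested. With the mouse as a block 4 transporters, 7 regulators and 5 other steps were called lower, and 0, 3 and 2 were called higher, where 16.5% of all probes were called lower and 16.3% higher. No gene of these lists was called between genotypes.

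Markers of other liver cells were also present, and their part in these results was not tested. Between 7 and 11 of 11 macrophage markers were above background per array, and 6 or 7 of 9 cholangiocyte markers, with Muc1 on 0 arrays. The 10 tested macrophage markers all had a negative difference with shTLS over both genotypes (median -1.11), and all 10 had a positive difference between -/- and +/+ cells, with a median of 2.61 with the control vector and 1.43 with shTLS. By limma without a block 0 of them passed the threshold in these comparisons, with 1, 1 and 0 at an unadjusted p under 0.05. Blocked by mouse, 6 of the 10 were called lower with shTLS over both genotypes, where 16.5% of all probes were called lower. Their summed level was 11.79 to 13.67 in +/+ control, 12.07 to 12.46 in +/+ shTLS, 12.77 to 16.25 in -/- control and 12.33 to 14.66 in -/- shTLS cells. The summed level of the cholangiocyte markers was 15.32 to 17.12 in +/+ control and 14.23 to 15.44 in +/+ shTLS cells, and 15.60 to 17.72 in -/- control and 14.20 to 15.93 in -/- shTLS cells. That of the hepatocyte markers was 18.02 to 19.34, 18.11 to 18.63, 18.26 to 19.04 and 17.80 to 18.19 in the same order. In -/- cells this summed level did not overlap between control and shTLS cultures. The mean log2 signal of the same markers did overlap. It was 12.53, 12.65 and 12.06 in -/- control cells and 11.32, 12.12 and 12.16 in -/- shTLS cells. Of 8 endothelial markers 6 had a positive difference with shTLS over both genotypes (median 0.26), and of 6 stellate markers 0 (median -0.43). With the control vector 7 of 8 endothelial (median 0.45) and 5 of 6 stellate markers (median 0.89) were higher in -/- than in +/+ cells. With shTLS the medians were 0.82 and 0.41. By limma 0 markers of these 2 lists passed the threshold in these comparisons.

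Across the 12 arrays, the genes outside these lists with the pattern most like that of Cyp7b1 were Sort1 (Pearson r = 0.91), Ces1g (0.89) and Mbnl1 (0.85). For Cyp27a1 they were Hrg (0.92), Etfa (0.91) and Pigr (0.88), and for Nr0b2 they were Nfia (0.95), Cenpm (0.94) and Acot1 (0.94). Among the genes described here the closest were Cyp27a1 and Slc27a5 (0.76), Baat and Slc27a5 (0.67) and Cyp7b1 and Amacr (0.62). These are descriptions, since the arrays share mice and slides and the genes were picked as the highest of many.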

How the data were processed

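RNA of 12 cultures was hybridized to 1-colour Agilent arrays. Spot intensities with 0 or 1 flags, read by Feature Extraction 10.1.1.1, make up the deposited array files, per the file headers. For the deposited log2 table the authors raised signals below 1 to 1 and quantile normalized them, per the series' design text. These log2 values are the main values here; recomputed ones correlated by at least 0.99997. The submitters' processing notes also name limma.

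Probes were named through RefSeq accessions (24375 of 41174 matched, GRCm38.p6, names only). The 24983 probes tested were those well above background on every array of 1 or more groups. One fit of the 4 group means was made in R 4.3.3 by limma 3.58.1 and statmod 1.5.0, using two-sided moderated tests and Benjamini-Hochberg adjustment over all tested probes. A call is an adjusted p under 0.05. The fit was also run on simulated data, whose outcome is not given, so no conclusion is drawn from it. For the genotypes averaged over vectors the mouse was a random block with a consensus correlation of 0.584, a value kept in the alternatives except the replicate block. The number of arrays limits the precision, and with 3 against 3 an exact test cannot go below p = 0.1.

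Same-numbered control and shTLS arrays come from 1 mouse, per the labels. Their deviations from the group means correlated by 0.451 to 0.671, and those of different numbers by at most 0.104. Since the deviations within a group cancel out, high correlations of same numbers lower those of different numbers. The contrast is therefore no separate check of the pairing. Same-numbered arrays of different genotypes, which are different mice, correlated by 0.217 to 0.640 with the control vector and 0.524 to 0.605 with shTLS, and within a genotype the mouse and the number (assay and slide) cannot be told apart. Named are all probes of the genes, Ppargc1a, genes of the other lists that passed (otherwise the 2 with the largest averaged difference) and 3 genes of like pattern. Genes count by their brightest tested probe. The genes and lists were chosen with earlier results of these data known. The check of the gene targeted by the hairpin and 1 marker gene are not reported here.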

Additional observations from a re-analysis of the deposited data

How the results depend on the processing

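With the replicate block the count of probes called stayed at 0 in all comparisons. Cyp7b1 then had an adjusted p of 0.187 in +/+ cells and 0.136 over both genotypes. With the mouse block it was 1 in +/+ cells and 2 over both. Leaving out 1 mouse at a time with the mouse block, an alternative chosen after seeing the data, gave 0 in +/+ cells and 0 to 2 over both. With spike-in scaling, which put the median of all tested probes at -0.85 in +/+, -0.77 in -/- and -0.81 over both, the count was 3 in +/+ cells and 5 over both. The count was 0 under the other alternatives. They were recomputation from the array files, the 75th percentile, normexp (offset 50), probes above background on all 12 arrays, no filter, the brightest probe per gene, only the groups compared and leaving out each array. With spike-in scaling the 7 genes had medians of -1.26, -1.21 and -1.38 against -0.90, -0.79 and -0.84 for all genes. The call of Cyp46a1 was lost with spike-in scaling in +/+ (0.60) and -/- cells (0.91), with normexp (0.61 and 0.71) and with only the groups compared, and in +/+ cells with probes above background on all 12 arrays, and that of Cyp2c70 over both genotypes with normexp (adjusted p = 0.0527) and with no filter (adjusted p = 0.086), both by limma. The cause of these changes was not tested.

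Some signs turned, also of larger differences such as that of Nr0b2 between genotypes with the control hairpin (1.82). With the 75th percentile Cyp27a1 in -/- cells was 0.05. With spike-in scaling Baat was -0.45 (probe 1) and -0.40 (probe 2) in +/+ cells and -0.73 and -0.76 over both, and Amacr 0.03 for the difference between both effects. With normexp the second Baat probe was -0.01 in +/+ cells and -0.10 over both, and Baat was -0.15 and -0.21 between genotypes with the control hairpin. Leaving out 1 array at a time turned the sign of these, given as lowest to highest difference. For genotype -/- against +/+ averaged over vectors it was Baat (probe 1) -0.85 to 0.51 and Baat (probe 2) -1.0 to 0.45. For genotype -/- against +/+ with shTLS it was Amacr -0.09 to 0.14, Hsd3b7 -0.62 to 0.19 and Nr0b2 -0.04 to 1.45. For genotype -/- against +/+ with the control hairpin it was Amacr -0.09 to 0.50, Baat (probe 1) -1.0 to 1.45, Baat (probe 2) -1.07 to 1.5, Cyp7b1 -0.18 to 0.49, Nr0b2 -0.17 to 2.91 and Slc27a5 -0.77 to 0.13. For the difference between both effects of shTLS it was Amacr -0.44 to 0.14, Baat (probe 1) -2.08 to 0.38, Baat (probe 2) -2.33 to 0.24, Cyp27a1 -0.14 to 0.32, Hsd3b7 -0.13 to 0.94, Nr0b2 -2.18 to 0.89 and Slc27a5 -1.04 to 0.22. For shTLS against control averaged over genotypes it was Baat (probe 1) -0.42 to 0.81, Baat (probe 2) -0.56 to 0.73 and Cyp27a1 -0.15 to 0.06. For shTLS against control in +/+ it was Amacr -0.57 to 0.01, Baat (probe 1) -0.60 to 1.85, Baat (probe 2) -0.67 to 1.89, Cyp27a1 -0.28 to 0.13, Nr0b2 -2.31 to 0.76 and Slc27a5 -0.62 to 0.28. For shTLS against control in -/- it was Baat (probe 1) -0.90 to 0.30, Baat (probe 2) -1.17 to 0.08, Cyp27a1 -0.20 to 0.22 and Cyp7b1 -0.78 to 0.12. Cyp7a1, Cyp8b1 and Akr1d1 were limited by their signal over background.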
